A study of Homo sapiens with 16 samples.

Results

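A set of 10 genes of collagen hydroxylation, cross-linking and the extracellular matrix was followed in human B lineage cell lines with and without acquired resistance to low oxygen. They comprised the collagen prolyl hydroxylase subunits P4HA1, P4HA2 and P4HB, the lysyl hydroxylases PLOD1, PLOD2 and PLOD3, the lysyl oxidase LOX, fibronectin (FN1), the collagen VI chain COL6A1 and the surface glycoprotein THY1. These 10 genes were taken by symbol from the 18417 genes that had an array probe set of their own, and for each the brightest probe set over all 16 arrays was used. Only P4HB had a choice, of 2 probe sets. The groups were RPMI8226-HR, KMS-11-HR, U266-HR and IM-9-HR, the hypoxia-resistant (HR) cells kept at 1% oxygen for 24 hours, and the parental cells RPMI8226, KMS-11, U266 and IM-9, kept at 20% oxygen for 24 hours. Each of the 8 groups had 2 arrays. HR cells were measured at 1% oxygen and parental cells at 20%, so the effect of resistance and that of the oxygen level cannot be told apart. The labels used here do not say how the HR cells were made, whether they are clones, or whether a group had separate cultures for its 2 arrays, so p-values measure the spread between these arrays, which may be technical.

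RPMI8226, KMS-11 and U266 are multiple myeloma lines, a tumour of plasma cells. IM-9 is labelled in the same way and is elsewhere widely described as a lymphoblastoid B cell line. Of 10 plasma cell markers, 8 or 9 lay above the filter level in every group. Of 9 B cell markers with a probe set, 7 lay above it in IM-9-HR and 9 in IM-9 parental cells, against 2 to 4 in the groups of the other lines. These markers also moved with HR. Of the 9 B cell markers 1 rose and 5 fell in IM-9 (14.4% and 21.3% of all genes tested). There CR2 fell by 1.98 ± 0.09, CD22 fell by 1.299 ± 0.14, CD79A fell by 0.59 ± 0.10 and BLK fell by 0.35 ± 0.10 on the log2 scale. SPIB also fell in IM-9, while BANK1 rose. In RPMI8226 1 rose and 2 fell (10.7% and 15.3%). CR2 fell there by 3.58 ± 0.09 and BLK fell by 0.47 ± 0.10, while MS4A1 rose, at 10.19 in RPMI8226-HR, against 9.50 in parental RPMI8226. In KMS-11 1 rose and 1 fell (2.44% and 5.83%), as CR2 rose by 0.34 ± 0.09 and SPIB fell between group means under the filter level. In U266 1 rose and 1 fell (9.68% and 8.42%), as BLK rose by 0.99 ± 0.10 and CD79A fell by 0.72 ± 0.10. Beside the same shares of all genes, 3 plasma cell markers rose and 1 fell in RPMI8226, and 0 rose and 1 fell in KMS-11. In U266 2 rose and 1 fell, and in IM-9 3 rose and 2 fell. CD38 rose by 1.52 ± 0.12 in RPMI8226. SLAMF7 rose there by 0.79 ± 0.13 between group means under the filter level (5.73 and 4.93), and it fell by 1.39 ± 0.13 in U266. MZB1 rose in U266, PRDM1 and JCHAIN rose in IM-9, and DERL3 fell in IM-9. IRF4 rose by 0.36 in RPMI8226 and 0.34 in U266 and fell by 0.30 in KMS-11 and fell by 0.18 in IM-9 (± 0.06 each), and TNFRSF17 fell by 0.51 in RPMI8226 and rose by 0.34 in IM-9 (± 0.10 each). The myeloid marker CD68 rose by 1.11 ± 0.10 in IM-9. The part of these shifts in the results below was not tested. The filter level was 6.27 on the log2 intensity scale, the median of the whole table, and genes above it on at least 2 arrays were tested. Array medians lay between 6.22 and 6.34, and arrays of 1 group correlated at r of 0.993 to 0.996 over all probe sets. Values below are log2 intensities, differences are HR minus parental on that scale, and errors are standard errors of the fit.

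Collagens are modified in the endoplasmic reticulum before they fold. The prolyl hydroxylase joins a catalytic alpha subunit (P4HA1, P4HA2 or P4HA3) to the beta subunit P4HB, which is also the protein disulfide isomerase, and its product stabilises the collagen triple helix. The PLOD enzymes hydroxylate collagen lysines, and LOX oxidises lysines of the secreted protein so that the fibrils can be cross-linked. The hydroxylases consume oxygen and 2-oxoglutarate and need iron and ascorbate, and several of their genes, P4HA1, P4HA2, PLOD1, PLOD2 and LOX among them, are known targets of the hypoxia-inducible factors (HIF). Fibronectin, collagen VI and THY1 (CD90) are best known from fibroblasts and stromal cells, the cells that surround myeloma cells in the bone marrow.

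The stretches before the transcription start of the 4 hydroxylase genes that rose in at least 3 lines are shown because HIF binds a short core motif, searched here as ACGTG and GCGTG on both strands. Capitals mark the matches, CACGT and CACGC being the same motifs on the opposite strand. A palindrome CACGTG would count on both strands. Each sequence holds the 250 bases before the start site, read 5' to 3' on the gene's strand, from RefSeq GRCh38.p14.
P4HA1, chr10:73096867-73097116, minus strand: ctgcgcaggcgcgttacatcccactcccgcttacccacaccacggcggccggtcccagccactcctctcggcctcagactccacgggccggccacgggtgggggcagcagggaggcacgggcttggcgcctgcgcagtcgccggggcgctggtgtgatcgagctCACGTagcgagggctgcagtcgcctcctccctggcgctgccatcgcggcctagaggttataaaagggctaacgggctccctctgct
P4HA2, chr5:132227092-132227341, minus strand: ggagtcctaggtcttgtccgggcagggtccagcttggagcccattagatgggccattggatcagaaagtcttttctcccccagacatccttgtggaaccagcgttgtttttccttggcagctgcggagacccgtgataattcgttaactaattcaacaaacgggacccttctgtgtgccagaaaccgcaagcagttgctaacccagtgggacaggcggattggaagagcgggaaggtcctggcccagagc
PLOD1, chr1:11934467-11934716, plus strand: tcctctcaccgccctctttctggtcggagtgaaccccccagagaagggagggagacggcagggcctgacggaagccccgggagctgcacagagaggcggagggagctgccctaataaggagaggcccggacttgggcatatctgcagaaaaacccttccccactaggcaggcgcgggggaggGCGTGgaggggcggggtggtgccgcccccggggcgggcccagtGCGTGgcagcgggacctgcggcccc
PLOD2, chr3:146161185-146161434, minus strand: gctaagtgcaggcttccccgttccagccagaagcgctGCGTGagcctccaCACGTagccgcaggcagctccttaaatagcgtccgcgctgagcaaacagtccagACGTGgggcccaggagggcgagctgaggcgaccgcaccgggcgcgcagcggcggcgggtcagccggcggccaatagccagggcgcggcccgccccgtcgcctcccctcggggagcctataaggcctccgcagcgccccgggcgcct
P4HA1 held 1 match of ACGTG, 86 to 82 bases before the start. PLOD1 held 2 matches of GCGTG, the nearer 25 to 21 bases before the start. PLOD2 held 2 of ACGTG and 1 of GCGTG, and P4HA2 held 0 of either motif in this window. The P4HA2 window belongs to the start that the promoter table lists, which lies inside the annotated gene (chr5:132190147-132227853), so the stretch before the outermost end of that gene was not searched. The other 3 windows abut the end of their gene. Of 35114 human promoter windows of this length, 18.51% held ACGTG, 32.22% GCGTG and 43.21% at least 1 of them, so a match is common. Of the other members, P4HB had 1 match of GCGTG, PLOD3 and FN1 had 0, and the first listed of 3 LOX starts had 4 of ACGTG. THY1 and COL6A1 were not in the promoter table. These matches are letters in a window and were not tested as binding sites.

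**Figure D1:**
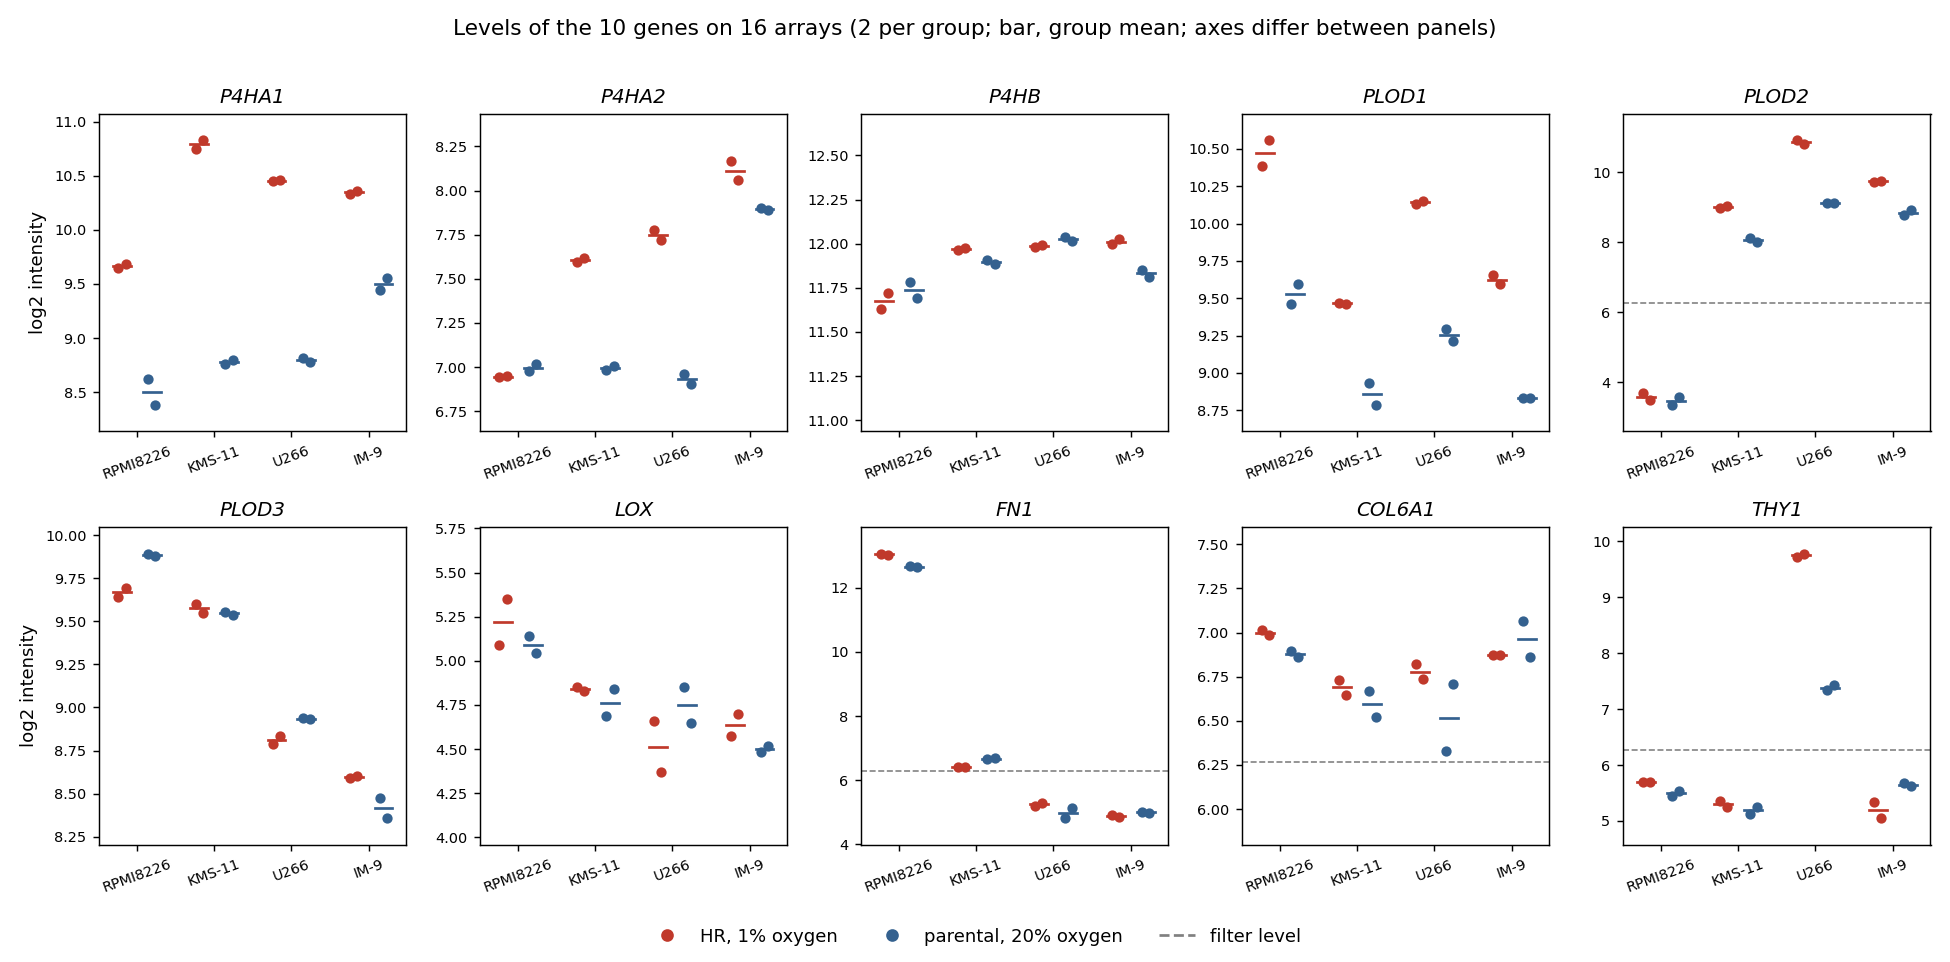
Log2 intensity of each of the 10 genes on every array, with HR cells (red, 1% oxygen) left of parental cells (blue, 20% oxygen) within each line. Bars are means of 2 arrays, the dashed line is the filter level of 6.27 where the axis reaches it, and axes differ between panels. P4HA1 and PLOD1 arrays of HR cells lie above their parental arrays in all 4 lines.

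Of the 10 genes, 9 passed the filter on low values, and LOX did not. P4HA1, P4HA2, P4HB, PLOD1, PLOD3 and COL6A1 were above the filter level on 16 of 16 arrays, PLOD2 on 12, FN1 on 8 and THY1 on 4. THY1 thus entered the tests through U266 alone and FN1 through RPMI8226 and KMS-11. The other values of these genes are low.

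In all 4 lines the HR cells had more P4HA1 and PLOD1 transcript than the parental cells. P4HA2 and PLOD2 rose in 3 lines, all but RPMI8226. Thus 2 of the 9 tested genes rose in each of 4 lines, against 0.348% of the 12639 genes tested. In at least 3 lines 4 of them rose, against 1.18% of all genes. The members were chosen with earlier results of these data known. Setting them beside the shares of all genes is therefore a description and no independent test. None of the 9 fell in all lines, as did 0.0791% of all genes. In RPMI8226 4 members passed, against 26% of all genes, with 3 that rose (10.7% of all genes did) and 1 that fell (15.3%). In KMS-11 4 passed, against 8.27%, and all 4 rose (2.44%, with 5.83% that fell). In U266 6 passed, against 18.1%, and all 6 rose (9.68%, with 8.42% that fell). In IM-9 7 passed, against 35.7%, with 6 that rose (14.4%) and 1 that fell (21.3%). The median difference of the 9 genes was 0.12 for RPMI8226, 0.11 for KMS-11, 0.82 for U266, then 0.18 for IM-9. Medians over all tested genes were -0.01, -0.02, -0.01 and -0.06 for the same lines. The RPMI8226 median was the value of PLOD2, and the KMS-11 median that of THY1. Each of these genes was under the filter level in that line and did not pass there, so these medians rest on low values. The IM-9 count of 7 was 4 when IM-9 was fitted alone. Calls over all 12639 genes were also fewer in that fit. There 1173 rose and 1670 fell, against 1814 and 2692 in the main fit.

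**Figure D2:**
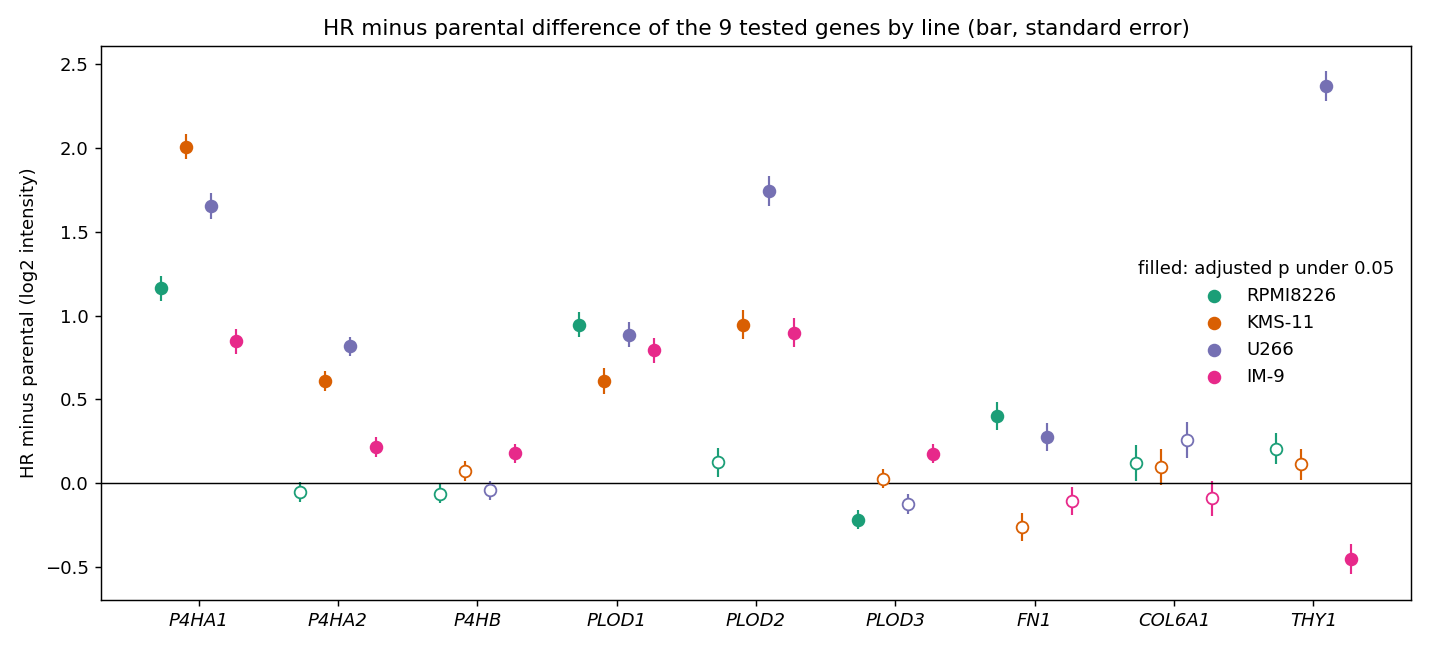
HR minus parental difference in log2 intensity for the 9 tested genes in each of 4 lines, with standard errors. Filled points had an adjusted p under 0.05. P4HA1 and PLOD1 are filled and positive in every line, while THY1 runs from -0.45 in IM-9 to 2.37 in U266.

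P4HA1, the main catalytic subunit of the prolyl hydroxylase, was at 9.65 and 9.68 in RPMI8226-HR, against 8.62 and 8.38 in parental RPMI8226. KMS-11-HR had 10.75 and 10.83, against 8.76 and 8.80 in parental KMS-11. U266-HR had 10.45 and 10.46, against 8.82 and 8.78 in parental U266. No HR array overlapped a parental array of its line, and parental IM-9 was the highest of the parental groups. IM-9-HR had 10.34 and 10.36, against 9.45 and 9.56 in parental IM-9. In fold terms P4HA1 was 2.24, 4.02, 3.15 and 1.80 times as high in HR cells, for RPMI8226, KMS-11, U266, then IM-9 (adjusted p = 2.37e-07, 8.29e-09, 7.34e-09 and 3.46e-06). The size of the rise differed between lines (F test, adjusted p = 1.29e-05, passed by 45.4% of all genes). In the order of levels, KMS-11-HR lay above U266-HR (adjusted p = 0.00152), whereas U266-HR and IM-9-HR (adjusted p = 0.248), RPMI8226-HR and IM-9 parental cells (0.0689) and the parental groups of U266 and KMS-11 (0.864) did not differ beyond their spread.

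P4HA2, the alternative catalytic subunit, was at 6.94 and 6.95 in RPMI8226-HR, against 6.98 and 7.02 in parental RPMI8226, a difference of -0.05 with a 95% interval of -0.18 to 0.07. KMS-11-HR had 7.59 and 7.62, against 6.986 and 7.005 in parental KMS-11. U266-HR had 7.78 and 7.72, against 6.96 and 6.91 in parental U266. The parental cells of these 3 myeloma lines thus sat within a narrow band, and the HR arrays of KMS-11 and U266 stood clear of it. IM-9-HR had 8.17 and 8.06, against 7.90 and 7.89 in parental IM-9, so that IM-9 was highest in either state. The rises were 0.61 ± 0.06 in KMS-11 (adjusted p = 5.82e-05), 0.82 ± 0.06 in U266 (5.19e-07) and 0.22 ± 0.06 in IM-9 (0.0115). The IM-9 rise was 0.16 with adjusted p = 0.114 without IM-9-HR array 1, and adjusted p ran from 0.00758 to 0.114 over its 12 alternatives. The difference between lines passed the F test (adjusted p = 1.42e-05). P4HA3, the remaining alpha subunit, was not bright enough to test, with group means of 5.49 to 5.63 in HR cells and 5.43 to 5.64 in parental cells.

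P4HB, the beta subunit, stayed within 11.63 and 12.04 over the 16 arrays. HR arrays were at 11.63 and 11.72 in RPMI8226-HR, against 11.78 and 11.69 in parental RPMI8226, and the arrays overlapped. The differences were -0.06 (95% interval -0.19 to 0.06) in RPMI8226, 0.07 (-0.05 to 0.20) in KMS-11 and -0.04 (-0.17 to 0.08) in U266. IM-9-HR had 11.996 and 12.03, against 11.85 and 11.81 in parental IM-9, a rise of 0.18 ± 0.06 (adjusted p = 0.0276). That call was lost in 8 of 12 alternatives, among them each array left out, and adjusted p ran from 0.00258 to 0.203. Its dimmer probe set gave 0.09, 0.06, -0.11 and 0.24 for RPMI8226, KMS-11, U266, then IM-9, the RPMI8226 value having the opposite sign. The F test of a difference between lines gave adjusted p = 0.0765.

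PLOD1, which hydroxylates lysines of the collagen helix, was at 10.39 and 10.56 in RPMI8226-HR, against 9.46 and 9.59 in parental RPMI8226. KMS-11-HR had 9.47 and 9.46, against 8.93 and 8.78 in parental KMS-11. U266-HR had 10.13 and 10.15, against 9.30 and 9.21 in parental U266. The separation was clean in each of these lines and also in the last. IM-9-HR had 9.66 and 9.59, against 8.83 on both parental IM-9 arrays. The rises were 0.95, 0.61, 0.89 and 0.79 (± 0.08 each) for RPMI8226, KMS-11, U266, then IM-9, or 1.93-, 1.53-, 1.85- and 1.73-fold, with adjusted p of 1.50e-06, 0.000439, 2.50e-06 and 5.33e-06. The F test of a difference between lines gave adjusted p = 0.0737. Levels ran from RPMI8226-HR at the top to IM-9 parental cells at the bottom, and IM-9-HR, RPMI8226 parental and KMS-11-HR cells formed a run in which no neighbours passed (adjusted p = 0.251 and 0.479).

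PLOD2, the hydroxylase of the collagen telopeptides, was the most line-dependent of the enzymes. RPMI8226-HR had 3.68 and 3.48, against 3.35 and 3.57 in parental RPMI8226, close to the bottom of the table, whose lowest value was 1.99, and the arrays overlapped. KMS-11-HR had 8.98 and 9.04, against 8.11 and 8.01 in parental KMS-11. In the other lines the gene was likewise clearly above the filter level, and HR arrays lay above parental arrays throughout. U266-HR had 10.92 and 10.82, against 9.13 and 9.12 in parental U266. IM-9-HR had 9.73 and 9.76, against 8.78 and 8.91 in parental IM-9. PLOD2 rose 1.92-fold in KMS-11 (adjusted p = 4.15e-05), 3.35-fold in U266 (1.80e-08) and 1.86-fold in IM-9 (6.45e-06). The RPMI8226 difference was 0.12 (95% interval -0.06 to 0.31, adjusted p = 0.341), and the F test across lines passed (adjusted p = 4.97e-06).

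PLOD3, which also transfers sugars to hydroxylated lysines, moved little and in opposite directions. RPMI8226-HR had 9.64 and 9.70, against 9.89 and 9.88 in parental RPMI8226, and IM-9-HR had 8.59 and 8.60, against 8.47 and 8.36 in parental IM-9. The arrays did not overlap in either line. PLOD3 fell by 0.22 on the log2 scale in RPMI8226 (± 0.06, adjusted p = 0.0163) and rose by 0.18 ± 0.06 in IM-9 (adjusted p = 0.0322). It did not pass in KMS-11 (0.03, 95% interval -0.10 to 0.16) or U266 (-0.12, interval -0.25 to 0.00). The difference between lines passed (adjusted p = 0.00814). The RPMI8226 call was lost without parental array 1 (adjusted p = 0.0615) and without HR array 1 (0.0864), out of a range of 0.00601 to 0.142 over 12 alternatives. The IM-9 call was lost in 7 of 12, and the difference was 0.12 (adjusted p = 0.187) without parental array 2. The spread among lines was larger than these changes, with parental means of 9.89 for RPMI8226, 9.55 for KMS-11, 8.93 for U266, then 8.42 for IM-9.

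LOX was below the filter level on all 16 arrays, between 4.37 and 5.35. HR arrays were at 5.09 and 5.35 in RPMI8226-HR, against 5.14 and 5.05 in parental RPMI8226. U266-HR had 4.66 and 4.37, against 4.85 and 4.65 in parental U266. The arrays overlapped in 3 lines and in IM-9 lay apart by little, with 4.57 and 4.70 in IM-9-HR, against 4.48 and 4.52 in parental IM-9. Differences of 0.13 for RPMI8226, 0.08 for KMS-11, -0.24 for U266, then 0.14 for IM-9 were not tested. When all genes were tested without a filter, adjusted p for LOX was between 0.230 and 0.787. Its relatives LOXL1, LOXL3 and LOXL4 were testable, and in 12 tests only LOXL3 in IM-9 passed, which fell by 0.28 ± 0.09 on the log2 scale (adjusted p = 0.0213) and was at 7.74 in IM-9-HR, against 8.02 in parental IM-9. LOXL2 was not tested.

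FN1, which encodes the adhesive matrix glycoprotein fibronectin, separated RPMI8226 from every other line. RPMI8226-HR had 13.07 and 13.04, against 12.67 and 12.65 in parental RPMI8226, near the top of the table at 13.92. KMS-11-HR had 6.42 and 6.40, against 6.66 and 6.68 in parental KMS-11. In U266 and IM-9 all 8 arrays were under the filter level. U266-HR had 5.20 and 5.28, against 4.81 and 5.12 in parental U266, and IM-9-HR had 4.92 and 4.85, against 5.01 and 4.97 in parental IM-9. FN1 rose by 0.40 ± 0.08 in RPMI8226 (1.32-fold, adjusted p = 0.00355). It also passed in U266 (0.28 ± 0.08, adjusted p = 0.0385), but that call was kept in only 7 of 12 alternatives. It was lost with no filter (adjusted p = 0.0633) and with U266 fitted alone (0.158). The call was also lost without parental array 1, without HR array 1 and without HR array 2. The U266 difference was then 0.12, 0.32 and 0.23. The KMS-11 difference of -0.26 did not pass (adjusted p = 0.0796), though it did with array weights (0.0348) and with KMS-11 fitted alone (0.0447), in a range of 0.0348 to 0.266. The HR effect differed between lines (F test, adjusted p = 0.00171).

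COL6A1, an alpha chain of the microfibrillar collagen VI, lay between 6.33 and 7.06 on all arrays and passed in 0 of 4 lines. Its differences were 0.12 (95% interval -0.11 to 0.35) in RPMI8226, 0.10 (-0.13 to 0.33) in KMS-11, 0.26 (0.03 to 0.49, adjusted p = 0.117) in U266 and -0.09 (-0.32 to 0.14) in IM-9. In U266 the parental arrays stood far apart, at 6.33 and 6.71, and U266-HR had 6.82 and 6.74. Without parental array 2 the U266 difference was 0.45 and passed (adjusted p = 0.0103), and adjusted p ran from 0.0103 to 0.728 over 12 alternatives. No pair of neighbours in the order of its 8 group levels passed. COL6A2, its partner chain, passed in 0 of 4 lines as well, with differences of 0.18, 0.10, 0.02 and -0.10 for RPMI8226, KMS-11, U266, then IM-9, and COL6A3 was not tested.

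THY1, a glycolipid-anchored surface protein, was measured well above the filter level in U266 only. U266-HR had 9.72 and 9.78, against 7.34 and 7.43 in parental U266, a rise of 5.16-fold (2.37 ± 0.09, adjusted p = 1.46e-09). Elsewhere every array was below the filter level. IM-9-HR had 5.34 and 5.05, against 5.68 and 5.62 in parental IM-9. There it fell by 0.45 ± 0.09 on the log2 scale (adjusted p = 0.00184), a call made between values under the filter level. RPMI8226 (0.21 ± 0.09, adjusted p = 0.115) and KMS-11 (0.11 ± 0.09, adjusted p = 0.496) did not pass. The difference between lines passed (F test, adjusted p = 2.38e-08). Of the 12 stromal or fibroblast markers listed, 3 were above the filter level in U266-HR and 3 in U266 parental cells, and group means of the whole list ran from 3.39 for POSTN to 12.53 for VIM. The matrix genes DCN, LUM and POSTN had group means of 3.39 to 3.74 in all 8 groups, whereas COL1A1 was above the filter level in all 8, at 7.29 in U266-HR and 7.12 in U266 parental cells, and did not pass in any line. TAGLN, not tested, was at 5.54 in U266-HR and 5.24 in U266 parental cells. The mean log2 level of the 12 markers was 5.79 to 5.83 over the U266-HR arrays, against 5.71 on both U266 parental arrays, and its part in the THY1 result was not tested. VIM, also expressed by lymphoid cells, rose by 0.40 ± 0.10 in U266 and by 1.98 ± 0.10 in RPMI8226. CXCL12 fell by 1.90 in RPMI8226 (± 0.12) and fell by 0.49 in IM-9 (± 0.12). Its IM-9 fall lay between group means under the filter level (4.15 in HR and 4.63 in parental cells). ACTA2, a smooth muscle and myofibroblast actin, rose by 0.54 ± 0.10 in IM-9. The endothelial marker PECAM1, also found on plasma cells, rose by 0.59 ± 0.09 in U266.

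With the line as the unit, 0 of the 9 genes passed across the 4 lines, as did 0% of all 12639 genes. PLOD1 averaged 0.81 ± 0.08 higher in HR cells (unadjusted p = 6.08e-05, adjusted p = 0.110) and was higher in 4 of 4 lines. P4HA1 averaged 1.42 ± 0.19 (adjusted p = 0.336) and was also higher in 4 of 4 lines. PLOD2 averaged 0.93 ± 0.24 (0.764). Its positive difference in RPMI8226, of 0.12, came from overlapping arrays under the filter level and did not pass, and it rose in the other 3 lines. P4HA2 averaged 0.40 ± 0.15 (0.764) and was higher in 3 of 4. At an unadjusted p under 0.05 stood 4 of the 9 genes and 793 of all genes. When arrays were taken as units, P4HA1, P4HA2, PLOD1 and PLOD2 passed, a fit in which arrays of the same line count separately. With the replicate number added as a block to that same fit of single arrays, PLOD1 (adjusted p = 9.05e-05), P4HA1 (0.00185) and PLOD2 (0.0459) passed. Neither fit has the line as its unit, and the share of all genes that passed in them is not given. Adjusted p for PLOD1 ran from 3.47e-07 to 0.714 over 10 alternatives. Of the 9 tested genes, 6 had an HR effect that differed between lines (45.4% of all genes did), namely P4HA1, P4HA2, PLOD2, PLOD3, FN1 and THY1. PLOD2, FN1 and THY1 were under the filter level in some lines, where an HR effect can hardly show. Their difference between lines was therefore in part built in. The parental level differed between lines for P4HA1, P4HA2, P4HB, PLOD1, PLOD3 and COL6A1, which were above the filter level on all arrays (94.3% of all genes differed). THY1, FN1 and PLOD2 passed the filter through the lines where they are high, so that a difference in their level was built in.

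**Figure D3:**
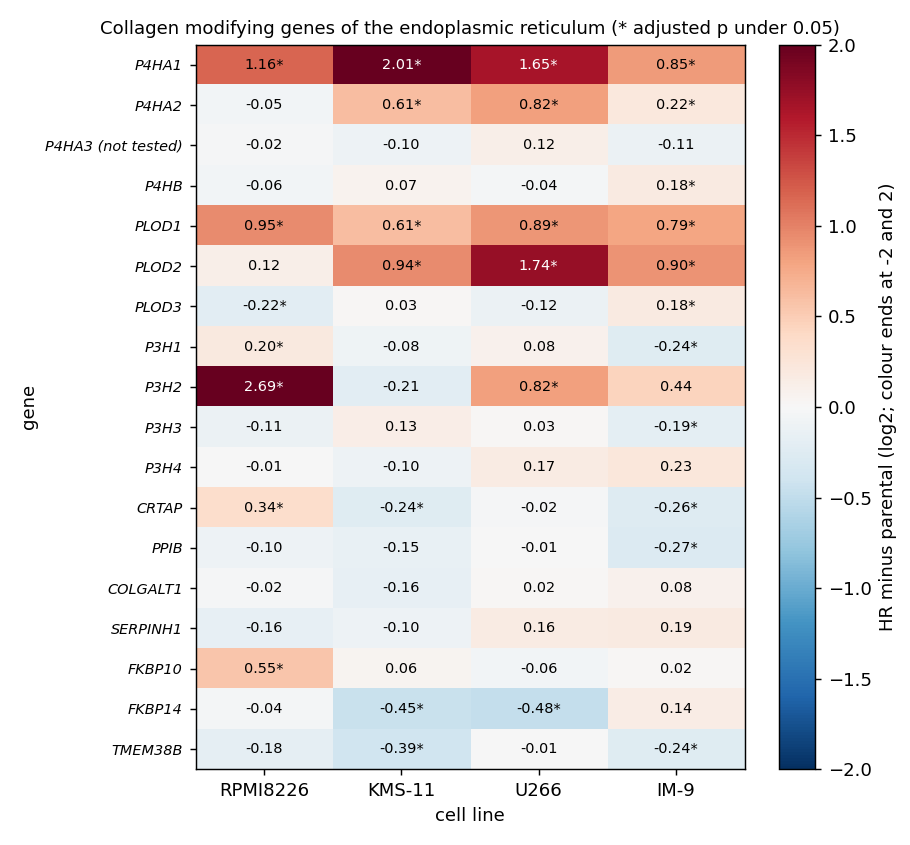
HR minus parental difference (log2, printed in each cell, asterisk for adjusted p under 0.05) of 18 collagen modifying genes in 4 lines. Positive values are red and colours end at -2 and 2. The strong red cells are those of P4HA1, PLOD1, PLOD2, P4HA2 and P3H2.

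Apart from the 6 hydroxylase genes above, 11 other collagen modifying genes of the endoplasmic reticulum were tested. In RPMI8226 4 of them rose and 0 fell (10.7% and 15.3% of all genes). In KMS-11 0 rose and 3 fell (2.44% and 5.83%), and in U266 1 rose and 1 fell (9.68% and 8.42%). In IM-9 0 rose and 5 fell (14.4% and 21.3%). Their medians were -0.02, -0.15, 0.02 and 0.02 in that order. P3H2, a prolyl hydroxylase that acts on a different carbon of proline, rose by 2.69 ± 0.18 in RPMI8226 and by 0.82 ± 0.18 in U266. Its level was 9.36 in RPMI8226-HR, against 6.68 in parental RPMI8226, and without passing it differed by -0.21 ± 0.18 in KMS-11 and 0.44 ± 0.18 in IM-9. CRTAP, which assists that kind of modification, rose by 0.34 ± 0.07 in RPMI8226, but fell by 0.24 in KMS-11 and fell by 0.26 in IM-9 (± 0.07 each). The peptidyl-prolyl isomerase FKBP14 fell by 0.45 in KMS-11 and fell by 0.48 in U266 (± 0.10 each). TMEM38B, a cation channel of the endoplasmic reticulum, fell by 0.39 in KMS-11 and fell by 0.24 in IM-9 (± 0.08 each). SERPINH1, the collagen chaperone HSP47, passed in 0 of 4 lines.

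P4HB also belongs to the protein disulfide isomerases. Of the 17 other tested isomerases and oxidases, 2 rose and 7 fell in RPMI8226 (10.7% and 15.3% of all genes), and 0 rose and 2 fell in KMS-11 (2.44% and 5.83%). In U266 2 rose and 2 fell (9.68% and 8.42%), and in IM-9 4 rose and 3 fell (14.4% and 21.3%). ERO1A, the oxidase that regenerates P4HB, rose by 0.26 ± 0.06 in RPMI8226 and by 0.55 ± 0.06 in U266. It was at 0.15 ± 0.06 in KMS-11 and 0.13 ± 0.06 in IM-9, where it did not pass. Among those that fell were PDIA2 in RPMI8226, which fell by 0.88 ± 0.14, and PDIA5, which fell by 0.42 in RPMI8226 and fell by 0.37 in IM-9 (± 0.11 each). ERO1B fell by 0.67 ± 0.15 in RPMI8226, between group means under the filter level (4.05 in HR and 4.73 in parental cells). TMX4 fell by 0.43 in RPMI8226 and fell by 0.45 in U266, but rose by 0.27 in IM-9 (± 0.09 each).

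Of the genes of ascorbate transport and proline supply, 6 were tested. SLC23A2, an ascorbate transporter, fell by 0.80 in RPMI8226, fell by 0.27 in KMS-11 and fell by 0.65 in U266 and rose by 0.21 in IM-9 (± 0.07 each). SLC23A1, the other ascorbate transporter, rose by 0.77 in RPMI8226, 0.31 in U266 and 0.27 in IM-9 (± 0.10 each). Of the proline synthesis genes, ALDH18A1 fell by 0.21 in RPMI8226, fell by 0.29 in KMS-11 and fell by 0.53 in IM-9 and rose by 0.40 in U266 (± 0.06 each). PYCR1 fell by 0.34 in KMS-11 and fell by 0.77 in IM-9 (± 0.07 each). In this list 1 rose and 3 fell in RPMI8226 (10.7% and 15.3% of all genes), and 0 rose and 3 fell in KMS-11 (2.44% and 5.83%). In U266 2 rose and 1 fell (9.68% and 8.42%), and in IM-9 2 rose and 3 fell (14.4% and 21.3%).

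**Figure D4:**
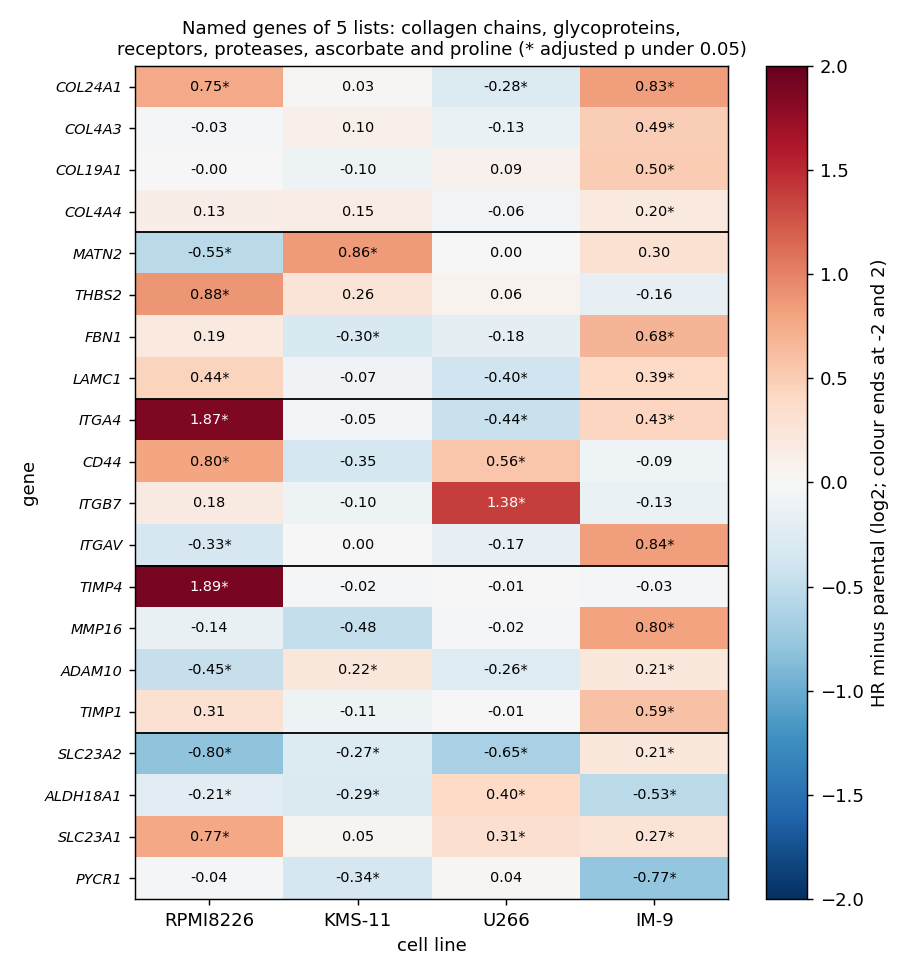
HR minus parental difference (log2, asterisk for adjusted p under 0.05) of the named genes of 5 lists, from collagen chains at the top to ascorbate transport and proline supply at the bottom, in 4 lines. ITGA4 and TIMP4 in RPMI8226 and ITGB7 in U266 hold the darkest red cells, at 1.87, 1.89 and 1.38.

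The collagen chains are the substrates of the hydroxylases. Of 20 tested chains, 2 rose and 1 fell in RPMI8226, where 10.7% and 15.3% of all genes did. In KMS-11 0 passed (8.27% of all genes), in U266 1 fell (8.42%), and in IM-9 4 rose (14.4%) and 0 fell (21.3%). COL24A1 rose by 0.75 in RPMI8226 and by 0.83 in IM-9 and fell by 0.28 in U266 (± 0.08 each). COL4A3 and COL19A1 rose in IM-9 by 0.49 ± 0.07 and 0.50 ± 0.09, and COL4A4 by 0.20 ± 0.07. The calls of COL24A1 in U266 and of COL4A3 and COL4A4 in IM-9 were made between group means under the filter level. The median over the 20 chains was 0.01 for RPMI8226, 0.08 for KMS-11, -0.01 for U266, then -0.10 for IM-9. In propeptide cleavage and secretion, 9 genes were tested. PCOLCE2, an enhancer of propeptide cleavage, fell by 0.56 in KMS-11 and fell by 0.54 in U266 (± 0.10 each). MIA3, needed to export collagen, rose by 0.51 ± 0.07 in IM-9, and the coat protein gene SEC31A rose by 0.22 ± 0.07 in RPMI8226, and no other call was made in this list.

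Beside FN1, 17 matrix glycoprotein and proteoglycan genes were tested. Including FN1, 5 rose and 2 fell in RPMI8226 (10.7% and 15.3% of all genes), and 2 rose and 2 fell in KMS-11 (2.44% and 5.83%). In U266 1 rose and 4 fell (9.68% and 8.42%), and in IM-9 3 rose and 2 fell (14.4% and 21.3%). MATN2 rose by 0.86 in KMS-11 and fell by 0.55 in RPMI8226 (± 0.15 each), THBS2 rose by 0.88 ± 0.12 in RPMI8226, and LAMC1, a laminin chain, rose by 0.44 in RPMI8226 and 0.39 in IM-9 and fell by 0.40 in U266 (± 0.13 each). FBN1, which encodes fibrillin, rose by 0.68 in IM-9 and fell by 0.30 in KMS-11 (± 0.07 each). The FBN1 fall in KMS-11 lay between group means under the filter level (4.82 in HR and 5.13 in parental cells). So did the LAMC1 fall in U266 (4.96 and 5.36). Of the receptors for collagen and fibronectin, ITGA4, an integrin subunit that binds fibronectin, rose by 1.87 in RPMI8226 and by 0.43 in IM-9 and fell by 0.44 in U266 (± 0.06 each). Its group means were 8.07 in RPMI8226-HR and 6.19 in parental RPMI8226, the lowest of the lines, and 9.17 to 10.47 in the HR cells and 9.22 to 10.58 in the parental cells of the other 3 lines. ITGB7, a partner of ITGA4, rose by 1.38 ± 0.11 in U266, CD44 rose by 0.80 in RPMI8226 and 0.56 in U266 (± 0.12 each), and ITGAV rose by 0.84 in IM-9 and fell by 0.33 in RPMI8226 (± 0.07 each). Beside the same shares of all genes, over the 13 tested receptors 2 rose and 1 fell in RPMI8226, 0 and 1 for KMS-11, 3 and 1 for U266, then 3 and 0 for IM-9. Of 11 tested proteases and inhibitors 1 rose and 4 fell in RPMI8226, 1 and 0 for KMS-11, 0 and 1 for U266, then 4 and 0 for IM-9. The inhibitor TIMP4 rose by 1.89 ± 0.11 in RPMI8226, and TIMP1 rose by 0.59 ± 0.15 and MMP16 by 0.80 ± 0.16 in IM-9. The protease ADAM10 passed in all 4 lines, falling by 0.45 in RPMI8226, and it fell by 0.26 in U266 but rose by 0.22 in KMS-11 and 0.21 in IM-9 (± 0.06 each).

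The tested genes whose levels followed each member most closely over the 8 group means are given as a description, since the groups share 4 lines. P4HA1 ran closest to LDHA, which encodes lactate dehydrogenase A (Pearson's r = 0.948), the mitophagy receptor gene BNIP3L (0.893) and ANKZF1 (0.890). PLOD1 ran closest to IPMK (0.957), ORAI3 (0.911) and PGK1, which encodes a glycolytic kinase (0.907). P4HA2 ran closest to ERO1A (0.942), PAPOLA (0.932) and TMEM200A (0.929). For PLOD2 and FN1, whose levels in RPMI8226 stand far from the rest, the closest genes were PCM1 (0.989), SLC35A3 (0.986) and NIPA1 (0.985), and VIPR1 (0.999), BARX2 (0.997) and GAS6 (0.994). For THY1 they were HAVCR1 (0.994), MAGEB16 (0.992) and C2 (0.992), which differed by 2.49, 2.00 and 2.02 in U266. P4HB was closest to TMEM140 (0.982), OTUD5 (0.979) and IFNAR1 (0.979), PLOD3 to RFX1 (0.993), ZNF3 (0.992) and ORMDL2 (0.986), and COL6A1 to OXSR1 (0.964), SCO2 (0.957) and CCNP (0.955). Among the members themselves the levels of P4HA1 and P4HA2 correlated at 0.726, those of P4HA1 and PLOD1 at 0.410, and those of PLOD2 and FN1 at -0.969. The RPMI8226 groups were lowest in PLOD2 and highest in FN1.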

How the data were processed

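The deposited table holds log2 intensities per probe set, which the authors had already summarised, with Affymetrix Expression Console 1.3.0 per the submitters' processing notes. How background and normalization were handled is not given in the sources used here. The design text names another version of the Gene ST array than the platform table, whose 21214 probe sets were all found in the table of 33297 by identifier. Of these, 19460 had exactly 1 gene symbol, and symbols were updated through Entrez identifiers in RefSeq (GRCh38.p14). The table has no detection calls. The number of arrays limits the precision.

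In limma 3.58.1 (R 4.3.3), 16 arrays were fitted as 8 groups with lmFit and eBayes and HR was compared with parental cells within each line, 2-sided, with Benjamini-Hochberg adjustment over 12639 genes and a threshold of 0.05. An F test compared the 4 HR effects, another the 4 parental levels. Across lines, means of 2 arrays entered a fit blocked on the line. The fits were run on simulated data in which the changed genes had the same change in every line, with independent noise between arrays. In the real data the HR effect differed between lines for 45.4% of all genes, so no assurance is drawn from the simulation. Members and lists were chosen with earlier results of these data known. All 10 members are named; from each list, up to 4 other genes that passed in at least 1 line with the largest mean absolute difference over lines are named where the text describes the list, and for each tested member the 3 genes with the highest correlation. BANK1, COL1A1, COL6A2, COL6A3, DCN, DERL3, ERO1A, JCHAIN, LOXL1, LOXL2, LOXL4 and LUM are named outside this rule. So are MS4A1, MZB1, P4HA3, POSTN, PRDM1, SERPINH1, SPIB and TAGLN. All of these were chosen after their values were seen (ERO1A is also among the correlated genes). Genes of families with near-identical copies may share signal. Alternatives were the filter, normalization, probe set choice, replicate block, array weights, variance model, each line alone and each array or line left out.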

Additional observations from a re-analysis of the deposited data

Results flagged for a closer look

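The HR effect differed between the 4 lines for 6 genes by the F test (45.4% of all genes did). Of these, PLOD2, FN1 and THY1 were under the filter level in some lines, so that their difference was in part built in. THY1 had adjusted p = 2.38e-08, rising by 2.37 in U266 and, at values under the filter level, falling by 0.45 in IM-9. PLOD2 had adjusted p = 4.97e-06, with the difference of 0.12 in RPMI8226, where its level was 3.58 in HR cells and 3.46 in parental cells, set against 1.74 in U266. P4HA1 (adjusted p = 1.29e-05) rose in every line, from 0.85 in IM-9 to 2.01 in KMS-11. P4HA2 (1.42e-05) ran from -0.05 in RPMI8226 to 0.82 in U266. FN1 (0.00171) ran from -0.26 in KMS-11 to 0.40 in RPMI8226, and PLOD3 (0.00814) from -0.22 in RPMI8226 to 0.18 in IM-9.

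For LOX the U266 difference of -0.24 stood apart from the other 3 lines, with a gap of 0.835 of the whole range, above Dixon's 95% critical value for 4 values. All its arrays were below the filter level, and chance gives such a gap in about 1 of 20 sets of values.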

How the results depend on the processing

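Of 21 differences of the members that passed within a line, 0 changed direction under any alternative. P4HA1 and PLOD1 in 4 lines, PLOD2 in KMS-11, U266 and IM-9, P4HA2 in KMS-11 and U266, FN1 in RPMI8226 and THY1 in U266 and IM-9 kept their call in all 12 alternatives each. The replicate number did not pair the arrays (correlations of deviations 0.205, 0.071, -0.048 and 0.109 for RPMI8226, KMS-11, U266, then IM-9), and the replicate block changed 2 within-line calls, P4HB and PLOD3 in IM-9 (adjusted p = 0.0578 and 0.0507). Fits with an array left out keep 1 array in a group, so the number of genes that passed in such a fit is not set out. These fits are among the 12 alternatives of each difference and among the 1051 values given below. Calls that depended on single arrays are described with their genes above. In the main fit 9 members differed in parental level (94.3% of all genes), a difference built in for THY1, FN1 and PLOD2. The HR effect differed for 6 members (45.4% of all genes). With each line fitted alone IM-9 had 4 calls among the members, where 1173 of all 12639 genes rose and 1670 fell. Across lines 0 members passed, also with any line left out. With arrays as units, where arrays of a line count separately, 4 passed, and 3 when the replicate block was added. The share of all genes in those fits is not given. The P4HB difference in RPMI8226 was 0.0139 with the mean of both probe sets. Of 88 differences named for 45 other genes, 0 changed direction, but 163 of 1051 values under the alternatives lost the call, and 21 differences lost it under at least 1 setting that fitted all lines and arrays together. Leaving out arrays moved COL6A1 in IM-9 between -0.19 and 0.0129. Leaving out lines moved the mean difference of P4HB between -0.00958 (without IM-9) and 0.07, PLOD3 between -0.10 and 0.0278 (without RPMI8226), FN1 between -0.0296 (without RPMI8226) and 0.19 and THY1 between -0.0440 (without U266) and 0.90. The cause was not tested.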
